A study of Arabidopsis thaliana with 6 samples.

Results

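The transcript levels of 10 phenylpropanoid enzyme genes were followed in callus grown from cut leaves of Arabidopsis thaliana. The genes were chosen by locus from the pathway, 10 of the 36793 loci in the deposited tables, with earlier results of these data known. All 10 passed the count filter that left 18364 genes for testing. They were PAL1, PAL2 and PAL4, C4H, 4CL1 and 4CL2, HCT, CCOAOMT1, COMT1 (named OMT1 in RefSeq) and CHS (named TT4 in RefSeq). Explants were leaves of seedlings aged 2 weeks, of the standard laboratory accession Col-0, with no mutation or transgene named in the labels. They were kept on callus-inducing medium, whose hormones drive cut tissue to form a mass of dividing cells, and callus was harvested at 7 or 12 days, with 3 biological replicates at each age. No uncultured leaf was analysed here, and every difference below is day 12 against day 7.

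The general phenylpropanoid pathway turns phenylalanine into activated p-coumarate. PAL enzymes remove the amino group, C4H hydroxylates the resulting cinnamate, and 4CL enzymes join p-coumarate to coenzyme A. From there HCT and the methyltransferases lead to the lignin of secondary walls, while CHS opens the flavonoid branch, which yields flavonols and anthocyanins. Ferulate and its relatives also supply suberin, coumarins and soluble esters.

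From day 7 to day 12, 4CL2 rose 2.05-fold, PAL1 1.61-fold and HCT 1.48-fold. These 3 of the 10 genes were called higher by edgeR at an adjusted p under 0.05, against 12.7% of all genes tested, and 0 of the 10 were called lower, against 12.5%. At an unadjusted p under 0.05, 5 of the 10 were higher, against 19.7% of all genes, and 0 lower, against 19.2%. DESeq2 called 5 of the 10 higher and 0 lower, against 13.5% and 11.3% of all genes. limma-voom called 4 higher and 0 lower, against 12.5% and 12.7%. The median change of the 10 was 0.42 on the log2 scale, and that of all genes was -0.0015. A fit that also held the replicate number as a block called 6 of the 10 higher, adding PAL4, C4H and COMT1, where 14.4% of all genes were called higher; it called 0 lower, against 13.8%. For 5 of the 10 genes every day 12 library lay above every day 7 library, which held for 21.2% of all genes, and for 0 of the 10 every day 12 library lay below, which held for 22.5%. The flavonoid gene CHS had a fitted change of -0.15 ± 0.63 (SE). In bulk samples, less RNA of a gene per cell and fewer cells that make it cannot be told apart.

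**Figure D1:**
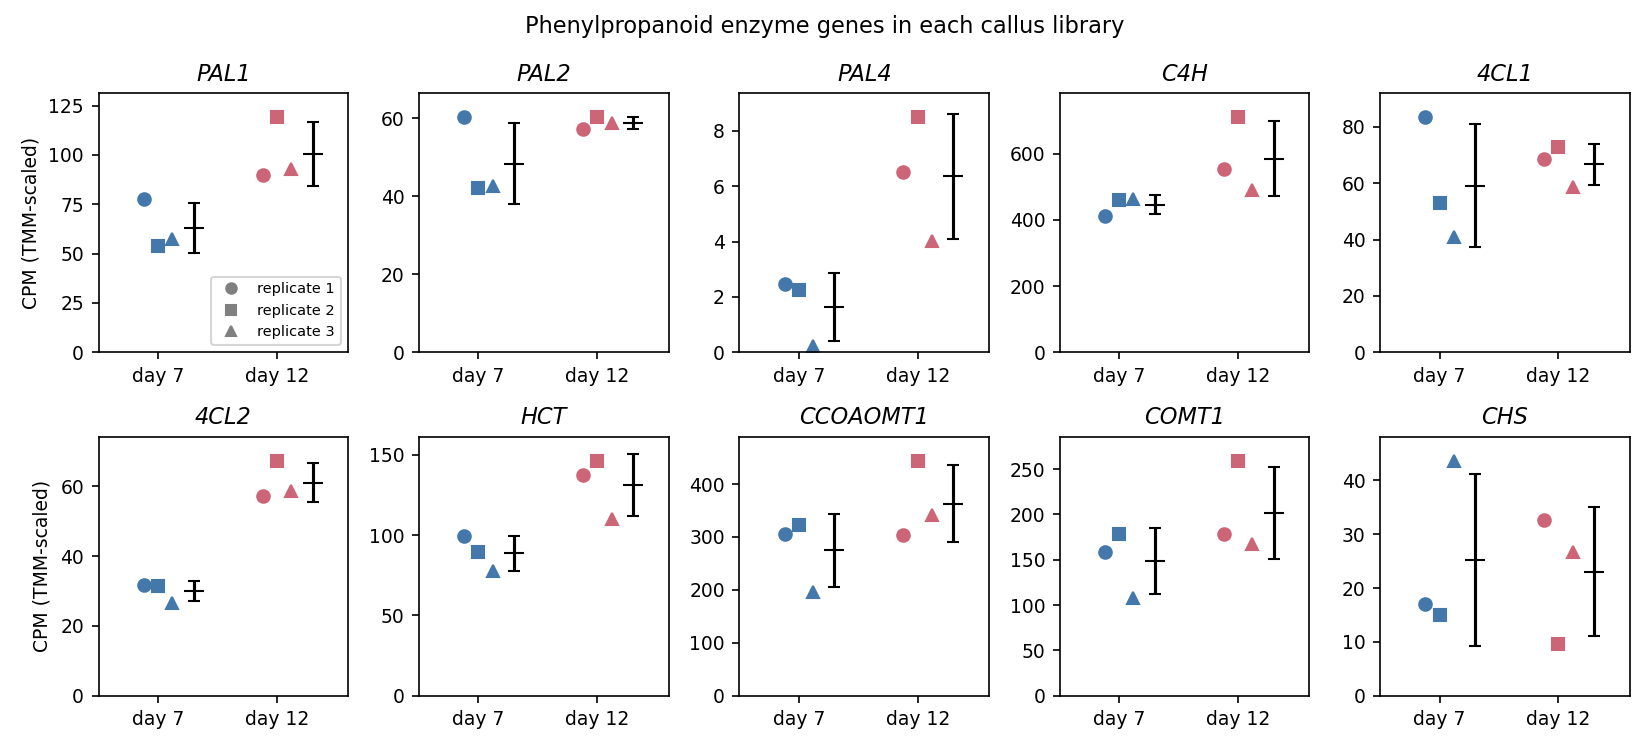
Level of each of the 10 genes in every library, in CPM (counts relative to the library total, which is adjusted by its TMM factor; linear axes from 0); points are libraries, with one marker shape per replicate number, and the bar beside them is the mean ± SD of 3 libraries. PAL1, PAL4, C4H, 4CL2 and HCT have all day 12 points above all day 7 points, and the others overlap.

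The libraries held 4927953 to 10746277 counts, and 3 counts stood for 0.269 to 0.635 CPM. Day 12 replicate 3 was the shallowest. Nuclear rRNA loci took 0.121% to 3.90% of the counts and 1.67% to 30.7% of the TPM of a library, so TPM levels are given after the 4 rRNA loci and the 164 organelle loci were left out and the rest rescaled ("rescaled TPM"). Of the 10 genes, 7 were highest in day 12 replicate 2 and 6 were lowest in day 7 replicate 3. Markers of the callus state (8 root meristem and lateral root genes) summed to 375 to 448 CPM on day 7 and 343 to 444 CPM on day 12, and none of the 8 was at 0 in every library. Of the 6 tested 0 were called higher and 2 lower, against 12.7% and 12.5% of all genes, with a median of -0.33. These were LBD16, a lateral root factor (-0.80 ± 0.22, adjusted p = 0.0297), and SCR, a factor of the root endodermis and stem cell niche (-0.45 ± 0.11, adjusted p = 0.0215). LBD29, too low to test, had 24, 20 and 7 counts on day 7 and 3, 1 and 0 on day 12. With the block the 2 stayed lower and PLT1, a root stem cell factor at 139 to 253 CPM, was called higher (0.37, adjusted p = 0.0406, against 0.129 with day alone). The calls of LBD16 and SCR were lost with limma on deposited or rescaled TPM. They were also lost without day 7 replicate 1, day 7 replicate 3 or day 12 replicate 2. That of LBD16 was lost without day 12 replicate 1 or day 12 replicate 3 as well.

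Promoter stretches are shown for the members whose 300 bases upstream of the annotated gene start hold a motif known from this pathway. The motifs searched on both strands included ACCTACC and ACCAACC, which MYB factors of lignin genes bind. The others were CACGTG, the G-box, and TTGACC, a form of the W-box. Each line gives RefSeq sequence of TAIR10.1, 5′ to 3′ on the strand of the gene, with the motif in capitals.
PAL4 (chr3:3203860-3203887, plus strand): tacatggaagaCACGTGgtgactatatt
4CL2 (chr3:7457527-7457555, minus strand, farther site): tagagtagctcACCAACCcctacatgaac
4CL2 (chr3:7457418-7457446, minus strand, nearer site): aataacatttcACCAACCacaaattcttt
HCT (chr5:19838308-19838336, minus strand): ggaacgggtttACCAACCccggatagaaa
CCOAOMT1 (chr4:16310185-16310213, plus strand): ccaagagattcACCTACCacggtacactt
CHS (chr5:4488232-4488259, plus strand): agttaagtatgCACGTGtaagaactggg

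Of the 10 windows 2 held ACCAACC, those of 4CL2 and HCT, and 1 held ACCTACC, that of CCOAOMT1. Among 27443 windows of protein-coding nuclear genes 3.18% held ACCAACC, 1.33% held ACCTACC and 4.42% held either. The nearer ACCAACC of 4CL2 lay 31 to 25 bases before the gene start and the farther 140 to 134 bases before it. The printed stretches of both sites overlap the annotated extent of the upstream neighbour AT3G21250. The HCT site lay 90 to 84 bases before its start, and the ACCTACC of CCOAOMT1 213 to 207 bases before. CACGTG was found in 2 of the 10 windows, at 117 to 112 bases before PAL4 and 233 to 228 bases before CHS, and in 7.09% of all windows. TTGACC was in 0 of the 10 and in 14.0% of all. The other form of the W-box, TTGACT, was not searched, so the 0 does not mean that W-boxes are absent. Windows such as those of PAL1, PAL2 and HCT hold TTGACT, and its share among all windows was not computed. Of the 3 genes that rose, 4CL2 and HCT carried the same motif letters and PAL1 carried none of the 4 in this window. A match describes the letters and is not evidence of binding.

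The PAL genes encode the entry enzyme. PAL1 (AT2G37040, chr2:15557367-15560755, minus strand, 2 exons) encodes a protein of 725 residues and is one of the main PAL genes of stems. Its level was 77.4, 53.9 and 57.4 CPM in day 7 replicates 1, 2 and 3 and 89.8, 119 and 93.0 CPM in day 12 replicates 1, 2 and 3. All day 12 libraries were above all day 7 libraries, with replicate 2 of day 12 the highest. PAL1 rose by 0.68 ± 0.16 on the log2 scale (SE, n = 3 and 3, edgeR adjusted p = 0.0192, and 0.0345 with the block). The call was kept in 13 of 17 alternative settings, over which the adjusted p ran from 0.00110 to 0.0690; it was lost without day 7 replicate 2 (0.0608) or day 7 replicate 3 (0.0690) and on deposited TPM.

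PAL2 (AT3G53260, chr3:19744018-19747114, minus strand, 2 exons, 717 residues) acts beside PAL1 in stems. It stood at 60.3, 42.1 and 42.6 CPM on day 7 and 57.1, 60.2 and 58.7 CPM on day 12. Day 7 replicate 1 reached the day 12 level, so the days overlapped, and the change of 0.28 ± 0.14 did not pass (adjusted p = 0.173). Without day 7 replicate 1 it did (0.47, adjusted p = 0.0299, the lowest of 17 settings, which reached 0.431). The proteins of PAL1 and PAL2 are 89.3% identical, and their transcripts share an identical run of 80 bases. Read length and the treatment of reads that fit both are not given in the sources used here, so the split of counts between PAL1 and PAL2 is uncertain.

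PAL4 (AT3G10340, chr3:3203988-3208135, plus strand, 3 exons, 707 residues) was the least abundant of the 10. It held 18, 25 and 2 counts in the day 7 libraries and 64, 89 and 19 in the day 12 libraries, or 2.45, 2.25 and 0.221 CPM against 6.53, 8.50 and 4.02 CPM. The days did not overlap, and day 7 replicate 3 lay under the level of 3 counts. Its fitted change of 1.98 ± 0.62 was the largest of the 10, at an adjusted p of 0.0531, and it passed with the block (2.07, adjusted p = 0.00998). Without day 7 replicate 3 the change was 1.46 (adjusted p = 0.0411). Over the 17 settings its adjusted p ran from 0.00775 to 0.131.

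C4H (AT2G30490, chr2:12993625-12996012, minus strand, 3 exons, 505 residues) is the single-copy P450 that makes p-coumarate. Its level was 413, 459 and 465 CPM on day 7 and 555, 711 and 490 CPM on day 12. Every day 12 library was above every day 7 library, with replicate 3 of day 12 close to the day 7 range. The change of 0.39 ± 0.14 did not pass without the block (adjusted p = 0.0616) and passed with it (0.38, adjusted p = 0.0371). It also passed without day 12 replicate 3 (0.51, adjusted p = 0.0277), and over the 17 settings the adjusted p ran from 0.0255 to 0.331.

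Of the 4CL genes, which encode the ligases that activate p-coumarate, 4CL2 was the only one of the 10 genes called in every one of the 17 alternative settings. 4CL2 (AT3G21240, chr3:7454269-7457404, minus strand, 4 exons, 556 residues) stood at 31.7, 31.3 and 26.6 CPM on day 7 and at 57.1, 67.3 and 58.7 CPM on day 12. The days were far apart against a spread of 2.87 CPM (SD) on day 7 and 5.51 CPM on day 12. 4CL2 rose by 1.03 ± 0.11 (adjusted p = 0.00164), with log2 changes of 0.95 to 1.12 over those settings.

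4CL1 (AT1G51680, chr1:19158746-19161737, minus strand, 4 exons, 561 residues), which acts in lignin synthesis, did not follow its paralog. It stood at 83.5, 53.1 and 40.9 CPM on day 7 and 68.7, 72.7 and 58.7 CPM on day 12. The day 7 libraries spread on both sides of the day 12 range. The change was 0.18 ± 0.25 (adjusted p = 0.636), and without day 7 replicate 3 it was -0.026. The proteins of 4CL1 and 4CL2 are 81.6% identical and the longest run shared by their transcripts is 35 bases. An annotated antisense gene, AT1G51670, overlaps 4CL1 by 24 bases and had 0 to 5 counts in a library.

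The direct neighbour of 4CL2 belongs to the same family. 4CL5 (AT3G21230, chr3:7448040-7452106), whose enzyme also activates sinapate, lies on the same strand 2162 bases away with 0 genes between. It is not among the 10 and was taken from the list of other core and lignin genes. Its level was 5.71, 6.38 and 5.20 CPM on day 7 and 19.3, 24.5 and 17.6 CPM on day 12, so the days did not overlap. 4CL5 rose by 1.83 ± 0.18 (adjusted p = 0.00141, and called in 17 of 17 settings). A gene on the other strand, AT3G21220, overlaps 4CL5 by 459 bases, and without a stated strand setting reads of the overlap cannot be told apart. AT3G21220 had 247, 350 and 260 counts on day 7 and 284, 246 and 124 on day 12. 4CL5 had 42, 71 and 47 counts on day 7 and 189, 256 and 83 on day 12.

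**Figure D2:**
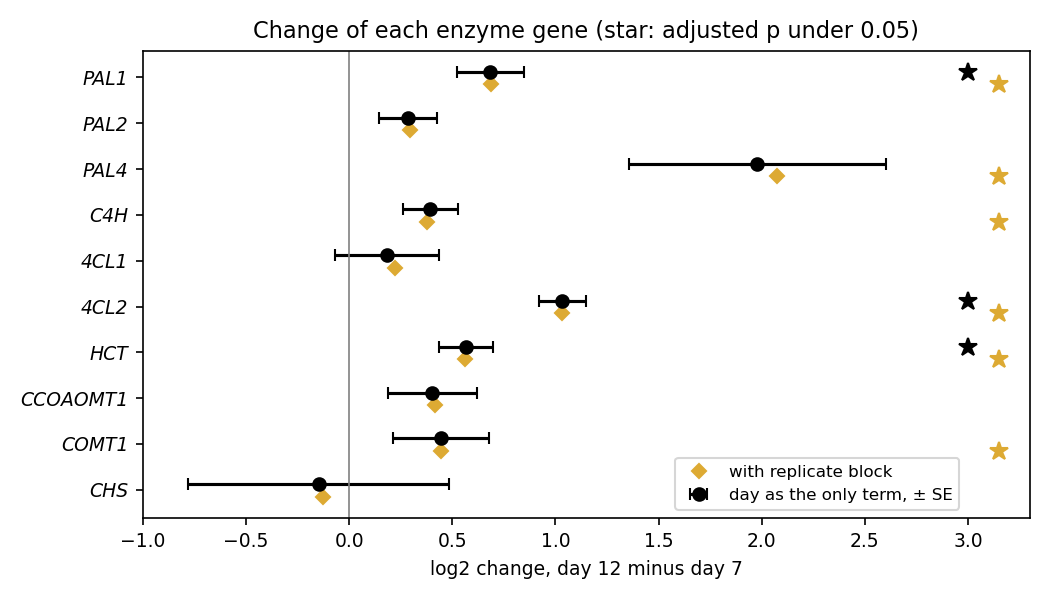
Fitted log2 change (day 12 minus day 7) of each of the 10 genes; black circles with bars are the edgeR fit with day alone ± SE, yellow diamonds the fit with the replicate block, and stars at the right mark an adjusted p under 0.05 in the fit of that colour. 4CL2, PAL1 and HCT carry both stars, PAL4, C4H and COMT1 only the yellow one, and CHS lies at -0.15 with the widest bar.

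HCT, the acyltransferase that draws p-coumaroyl-CoA towards lignin, rose. HCT (AT5G48930, chr5:19836299-19838235, minus strand, 2 exons, 433 residues) stood at 99.4, 89.4 and 77.6 CPM on day 7 and at 137, 146 and 110 CPM on day 12. All day 12 libraries were above all day 7 libraries. The change was 0.57 ± 0.13 (adjusted p = 0.0149, and 0.00395 with the block). It was kept in 13 of 17 settings (adjusted p from 0.00141 to 0.123) and lost without day 7 replicate 3 (0.0548) or day 12 replicate 1 (0.0546) and on deposited TPM.

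CCOAOMT1 (AT4G34050, chr4:16310409-16312308, plus strand, 4 exons, 286 residues) methylates caffeoyl-CoA on the way to guaiacyl lignin. It stood at 306, 322 and 196 CPM on day 7 and 304, 444 and 341 CPM on day 12. Day 12 replicate 1 fell inside the day 7 range, and day 7 replicate 3 was low. The change was 0.40 ± 0.22 (adjusted p = 0.217, and 0.0864 with the block), and it passed in 0 of 17 settings.

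COMT1 (AT5G54160, chr5:21981902-21984399, plus strand, 4 exons, 363 residues) methylates the later intermediates of syringyl lignin and also flavonols. It stood at 158, 179 and 108 CPM on day 7 and 178, 260 and 167 CPM on day 12. The days overlapped, with day 7 replicate 3 again the lowest and day 12 replicate 2 the highest. The change of 0.44 ± 0.23 did not pass with day alone (adjusted p = 0.204) and passed with the block (0.44, adjusted p = 0.0180), the only one of 17 settings in which it did; the highest adjusted p among them was 0.497. The methyltransferases share 16.4% of aligned residues, and the TPM ratio of CCOAOMT1 to COMT1 stayed between 2.41 and 2.87 in the 6 libraries.

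CHS (AT5G13930, chr5:4488476-4490264, plus strand, 2 exons, 395 residues) encodes chalcone synthase. It stood at 17.0, 15.1 and 43.7 CPM on day 7 and 32.7, 9.65 and 26.7 CPM on day 12. Its highest library was day 7 replicate 3 and its lowest day 12 replicate 2, which is the reverse of most of the other genes, and the range between them was 4.53-fold. The change was -0.15 ± 0.63 (adjusted p = 0.890, and 0.851 with the block). It was 0.51 without day 7 replicate 3 and 0.25 without day 12 replicate 2, so its direction rested on single libraries.

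Of 13 other flavonoid genes 6 were tested, and their median change was -0.19. By edgeR 0 were called in either direction, against 12.7% higher and 12.5% lower among all genes. At an unadjusted p under 0.05, and by DESeq2 or limma-voom, the count was also 0. As with CHS, the highest library by CPM of TT5, CHIL, F3H, FLS1 and UGT78D1 was day 7 replicate 3. For TT5 (6.75 against 6.33 CPM) and CHIL (4.65 against 4.59 CPM) day 12 replicate 1 was close behind. By deposited or rescaled TPM that day 12 library was the highest for TT5 and CHIL. Pearson r of log2 CPM with CHS over the 6 libraries, given as a description, was 0.976 for CHIL, an enhancer of chalcone formation, and 0.889 for TT5, chalcone isomerase. It was 0.900 for F3H, the flavanone hydroxylase, and 0.875 for FLS1, flavonol synthase. Without day 7 replicate 3 these values were 0.995, 0.817, 0.825 and 0.782. The glycosyltransferase gene UGT78D2 gave -0.126, and UGT78D1 gave 0.475, or -0.0421 without that library. UGT78D1, the tested gene of lowest p in the list, had a change of -0.31 ± 0.33 (adjusted p = 0.531). The late anthocyanin genes DFR, LDOX and GSTF12 had at most 0.553 CPM on day 7 and 0 counts in each day 12 library, and they were not tested. TT8, a regulator of those genes, was at 0 counts in all 6 libraries, and the flavonol regulator MYB12 was at 10.7 to 20.9 CPM. Other anthocyanin genes too low to test did not all go that way. UGT75C1, a glucosyltransferase gene, had 3, 4 and 4 counts on day 7 and 2, 6 and 2 on day 12. The activator gene MYB90 had 0, 2 and 0 counts on day 7 and 4, 8 and 3 on day 12. The activator gene PAP1 had 4, 4 and 3 counts on day 7 and 0 in each day 12 library.

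**Figure D3:**
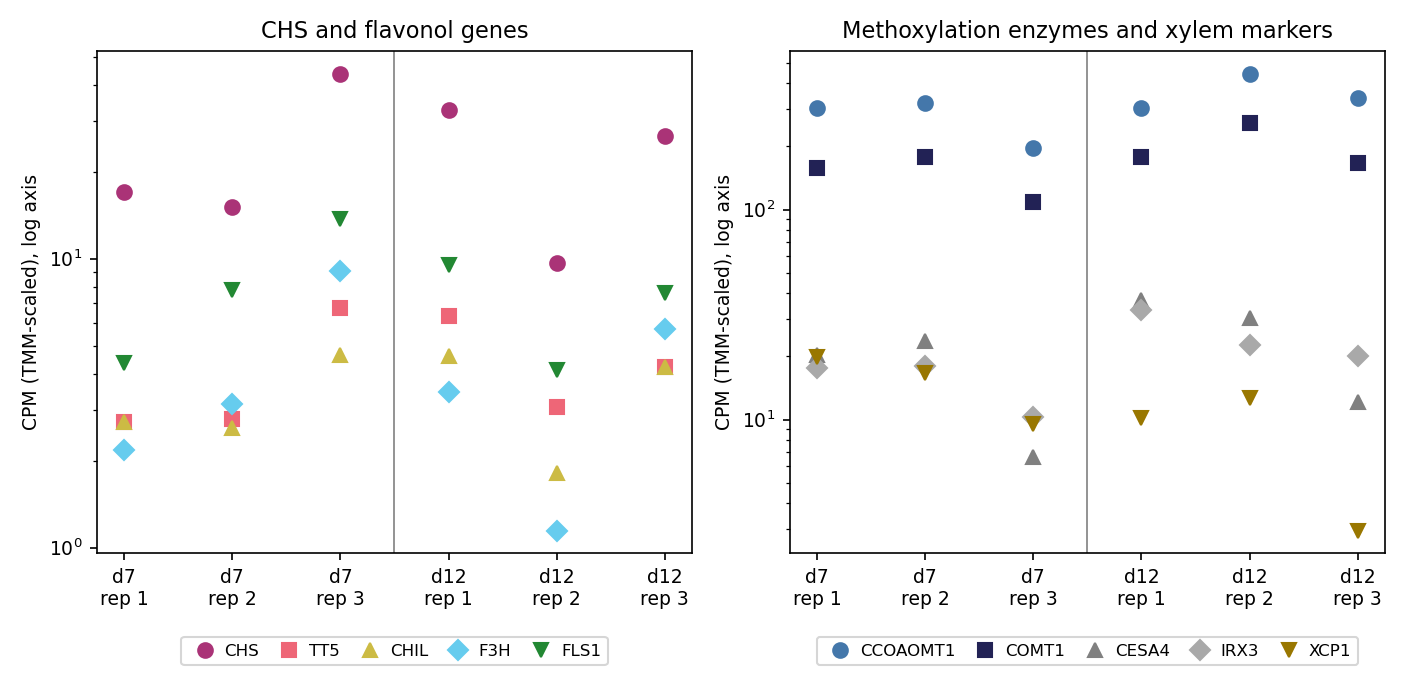
Levels by library (CPM, log axes; the vertical line parts day 7 from day 12) of CHS with 4 flavonoid genes at the left, and of CCOAOMT1 and COMT1 with 3 xylem markers at the right. CHS, CHIL, TT5, F3H and FLS1 are highest in day 7 replicate 3, CHIL and TT5 only narrowly. CCOAOMT1, COMT1 and the xylem genes CESA4 and IRX3 are lowest there, whereas the xylem gene XCP1 is lowest in day 12 replicate 3.

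The make-up of the PAL and 4CL transcript pools was compared as shares of the summed TPM within each library, which does not depend on scaling between libraries. With 3 libraries against 3, an exact permutation test (two-sided, 20 arrangements) cannot give less than p = 0.1, and 7 shares were tested. PAL1 made up 53.5%, 52.5% and 55.6% of PAL transcripts on day 7 and 57.4%, 62.1% and 58.3% on day 12. PAL2 made up 43.6%, 43.4% and 42.4% on day 7 and 37.6%, 32.7% and 38.4% on day 12. The shares of each gene did not overlap between the days, with PAL1 above and PAL2 below on day 12. PAL4 had a share of 1.47% ± 1.09 (SD, n = 3) on day 7 and 4.03% ± 1.03 on day 12.

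In the 4CL pool 4CL1 held 65.8%, 55.0% and 52.9% on day 7 and 43.6%, 40.9% and 41.4% on day 12. 4CL2 held 29.2%, 37.2% and 37.6% on day 7 and 42.3%, 43.2% and 44.7% on day 12. 4CL1 was thus the main 4CL transcript in each day 7 library, and it stood level with 4CL2 on day 12: the ratio of 4CL1 to 4CL2 TPM was 2.26, 1.48 and 1.41 on day 7 and 1.03, 0.948 and 0.926 on day 12. 4CL5 held 6.55% ± 1.29 on day 7 and 14.1% ± 1.22 on day 12. For each of these 6 shares the libraries of the days were apart and the exact permutation p was 0.1, the smallest possible, or 0.117 adjusted over the 7 shares. CHS as a share of CHS plus HCT, the enzymes that compete for p-coumaroyl-CoA, was 22.7% ± 12.8 on day 7 and 15.8% ± 8.11 on day 12, and the days overlapped (exact permutation p = 0.6).

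**Figure D4:**
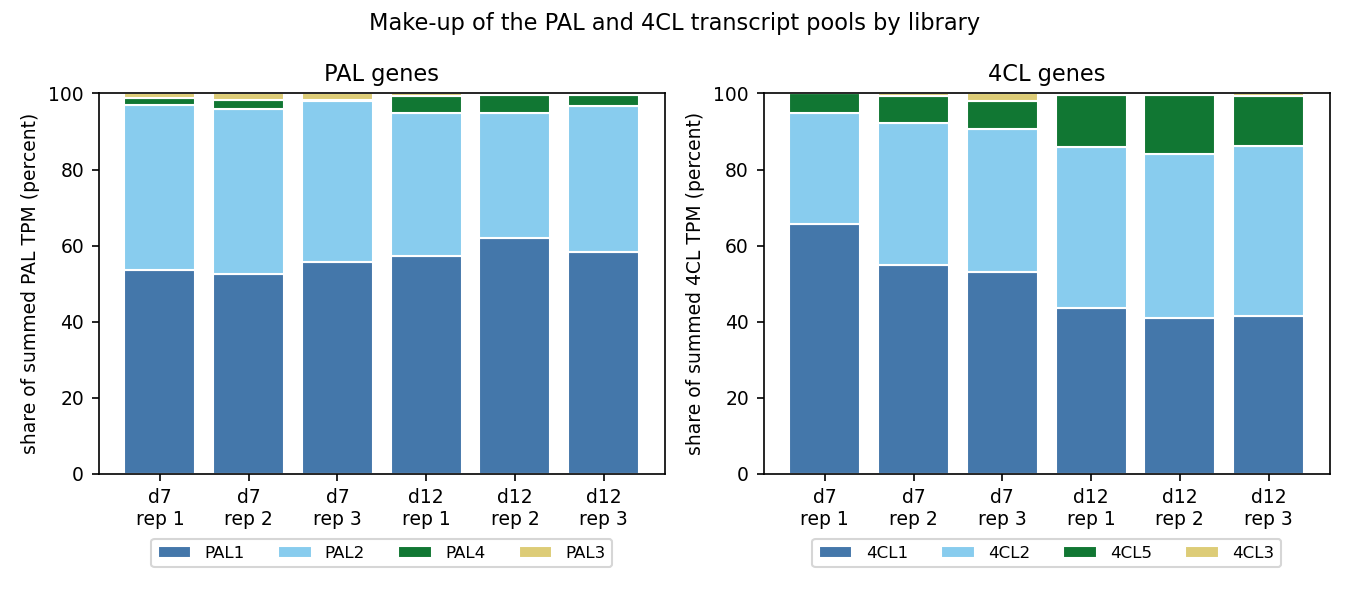
Share of each PAL gene (left) and each 4CL gene (right) in the summed TPM of its family, in percent, as stacked bars per library (d7 is day 7, d12 is day 12). On day 12 the PAL2 and 4CL1 segments are shorter than in every day 7 library, and those of PAL4, 4CL2 and 4CL5 are longer.

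Between genes, levels per transcript length were compared as rescaled TPM. On day 7 CCOAOMT1 (386 ± 99.9, SD, n = 3) and C4H (317 ± 22.3) led and overlapped each other. COMT1 followed at 148 ± 35.8 and HCT at 75.1 ± 9.17, each below the libraries of the gene before. 4CL1 (38.7 ± 13.7), PAL1 (30.5 ± 5.68), PAL2 (24.5 ± 4.91), CHS (22.7 ± 14.3) and 4CL2 (22.3 ± 2.61) followed, and each overlapped the next. PAL4 was last, at 0.857 ± 0.636, below all of them.

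On day 12 the order of the first 4 was the same, with CCOAOMT1 at 527 ± 95.0, C4H at 432 ± 78.9, COMT1 at 207 ± 48.8 and HCT at 116 ± 17.0 rescaled TPM. PAL1 (51.1 ± 6.88), 4CL2 (47.3 ± 3.56) and 4CL1 (45.8 ± 4.20) came next, each overlapping its neighbour. 4CL2, at the ninth place by mean on day 7, had the sixth. PAL2 (31.0 ± 0.0977) lay below all 4CL1 libraries, CHS (21.9 ± 11.8) overlapped PAL2, and PAL4 (3.50 ± 1.11) was again last. C4H transcripts per length exceeded the summed PAL transcripts 4.21-fold to 6.55-fold and the summed 4CL transcripts 3.55-fold to 6.42-fold over the 6 libraries.

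The patterns of single genes over the 6 libraries were compared by Pearson r of log2 CPM, again as a description. CCOAOMT1 and COMT1 were most like each other (r = 0.968). HCT was most like PAL4 (0.944), 4CL2 most like HCT (0.922), PAL1 most like 4CL2 (0.908) and PAL2 most like PAL1 (0.890). C4H was nearest to HCT (0.802) and 4CL1 to PAL2 (0.851). CHS had a negative r with each of the other 9 members, from -0.296 with 4CL2 to -0.831 with CCOAOMT1. Without day 7 replicate 3 the r of CHS was -0.716 with CCOAOMT1 and -0.682 with COMT1. Among 6255 genes with a symbol and at least 10 CPM, those nearest to PAL1 were EDR2 (0.990), ABA3 (0.987) and G18F (0.981). Those nearest to CCOAOMT1 were ERF1-1 (0.998), SAR1 (0.972) and J11 (0.972), and those nearest to CHS were FTSH11 (0.974), SAMC1 (0.973) and FIO1 (0.963).

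The steps around the 10 enzymes were read from lists of 114 further genes, 87 of them tested, in 6 lists of the pathway and 5 of cell type markers. In the other core and lignin genes 4 of 12 tested were called higher and 1 lower, with a median of 0.28. The shares of all genes were 12.7% higher and 12.5% lower. CAD4 (AT3G19450), a dehydrogenase that makes the lignin alcohols, was at 15.8, 13.7 and 16.0 CPM on day 7 and 31.6, 40.6 and 40.4 CPM on day 12, and rose by 1.30 ± 0.14 (adjusted p = 0.00152). FAH1 (AT4G36220), the hydroxylase that commits ferulate-type precursors to syringyl units and sinapate, moved the other way. It stood at 105, 65.6 and 78.7 CPM on day 7 and 32.7, 27.1 and 23.7 CPM on day 12, and fell by 1.56 ± 0.19 (adjusted p = 0.00256). Both were called in 17 of 17 settings. CYP98A3, the hydroxylase after HCT, had a change of 0.22 ± 0.13 (adjusted p = 0.237), and CCR1, the main reductase of lignin synthesis, of 0.44 ± 0.15 (adjusted p = 0.0620, and 0.00910 with the block). With the block 6 of the 12 were higher and 1 lower, against 14.4% and 13.8% of all genes, adding CCR1 and the dehydrogenase gene CAD5. Without day 7 replicate 1, day 7 replicate 2 or day 12 replicate 1 the number higher was 2.

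Of the genes for phenolic esters and coumarins, 5 of 7 tested were called higher and 0 lower, with a median of 0.73. Of all genes 12.7% were called higher and 12.5% lower. ASFT (AT5G41040), the feruloyltransferase of suberin, rose by 2.62 ± 0.37 (adjusted p = 0.00370). F6'H1 (AT3G13610), which opens the coumarin branch from feruloyl-CoA, stood at 2.86, 1.71 and 0.553 CPM on day 7 and 10.8, 32.5 and 9.95 CPM on day 12. It rose by 3.43 ± 0.71 (adjusted p = 0.0186), and by 2.63 without day 12 replicate 2; the call was lost without day 7 replicate 2 (0.0796) or day 7 replicate 3 (0.0537), and the lowest adjusted p over 17 settings was 1.7e-08. UGT72E1 (AT3G50740), a glycosyltransferase of the lignin aldehydes, rose by 0.73 ± 0.17 (adjusted p = 0.0146), a call lost without day 7 replicate 1 (0.0615) or day 7 replicate 3 (0.0534) and reaching 0.0628 on deposited TPM. The number called higher was 2 to 3 without any 1 day 7 library or day 12 replicate 1. With limma it was 2 on deposited TPM and 5 on rescaled TPM. SNG1, a sinapoyltransferase gene that did not pass the count filter, was called lower with no filter and without day 7 replicate 3.

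Upstream of the 10 enzymes, 1 of 19 genes of the shikimate route and phenylalanine synthesis was called higher and 1 lower. The shares of all genes were 12.7% and 12.5%, and the median of the 19 was 0.06. The arogenate dehydratase gene ADT5 (AT5G22630), whose enzyme makes phenylalanine, rose by 0.96 ± 0.21 (adjusted p = 0.0173), a call lost without day 7 replicate 1 (0.0787). ADT1 (AT1G11790), of the same family, fell by 0.50 ± 0.12 (adjusted p = 0.0191), a call lost without day 7 replicate 1 (0.0723), day 7 replicate 2 (0.0713) or day 12 replicate 1 (0.0592) and on deposited TPM (0.404). With the block 2 were higher and 2 lower, against 14.4% and 13.8% of all genes, adding ADT4 and the chorismate mutase gene CM3.

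Among regulators 1 of 16 tested was called higher and 0 lower, against 12.7% and 12.5% of all genes, with a median of 0.20. With the block 2 were higher, against 14.4% of all genes, adding MYB63, a regulator of lignin genes. The gene called with day alone, AT1G23390, annotated as a kelch-repeat F-box protein, rose by 1.19 ± 0.29 (adjusted p = 0.0181). Its call was lost without day 12 replicate 1 (0.0569) or day 12 replicate 2 (0.0521) and with limma on log2(TPM + 1) (0.0526). Of 4 tested laccase and peroxidase genes of lignin polymerization 0 were called, and with the block 1 was, the laccase gene LAC4. At an unadjusted p under 0.05 there was 1, and DESeq2 and limma-voom each called 1. The lowest p was that of PER64 (AT5G42180), with 1.90, 1.62 and 0 CPM on day 7 and 4.18, 6.11 and 7.83 CPM on day 12 (2.34 ± 0.77, adjusted p = 0.0625, and 0.119 with the block). By DESeq2 its adjusted p was 0.00402, and without day 7 replicate 3 0.0256.

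**Figure D5:**
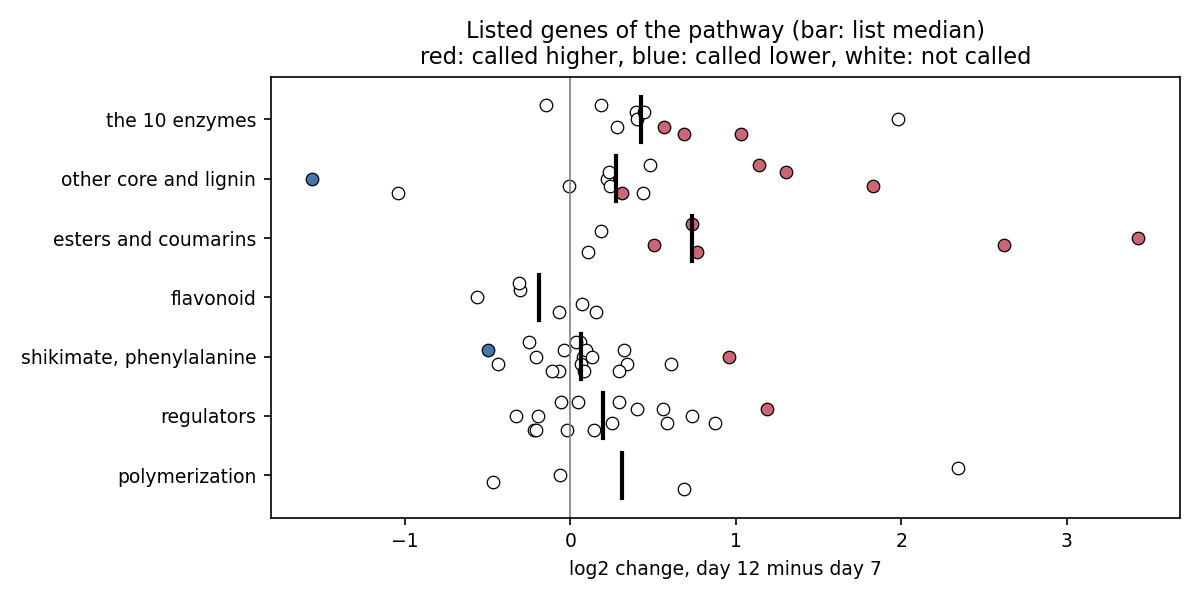
Fitted log2 change (day 12 minus day 7) of every tested gene in the 10 enzymes and the 6 pathway lists; each circle is a gene (red called higher, blue called lower, white not called), the vertical bar is the median of the list, and circles are spread vertically only to keep them apart. Medians run from -0.19 for flavonoid genes to 0.73 for esters and coumarins.

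Markers of other cell types were read in the same fit. Of all genes 12.7% were called higher and 12.5% lower, or 14.4% and 13.8% with the block. Xylem markers, 6 of 6 detected, summed to 86.2, 89.4 and 41.2 CPM on day 7 and 117, 95.1 and 51.9 CPM on day 12. Their sum was lowest in replicate 3 of each day, and CCOAOMT1 and COMT1 were lowest in replicate 3 on day 7. On day 12 COMT1 was lowest in replicate 3 (167 CPM) and CCOAOMT1 in replicate 1 (304 CPM). With day alone edgeR called 0 of the 6, with 2 higher at an unadjusted p under 0.05. DESeq2 called 2 higher and limma-voom 0, and with the block CESA4, IRX3 and IRX1 were higher and XCP1 and XCP2 lower. The secondary wall gene CESA4 was at 20.3, 23.8 and 6.64 CPM on day 7 and 37.0, 30.5 and 12.1 CPM on day 12. Endodermis markers summed to 0.885 to 3.94 CPM on day 7 and 17.6 to 32.4 CPM on day 12. All 3 tested of 5 listed were called higher, the suberin genes CYP86A1, GPAT5 and CYP86B1. The Casparian strip genes CASP1 and CASP2 had 0 counts in each day 7 library. SCR, also a gene of the root endodermis but listed with the callus markers, was called lower (-0.45, edgeR adjusted p = 0.0215). Epidermis markers summed to 2059 to 2730 CPM on day 7 and 1037 to 1121 CPM on day 12, with 4 of 5 called lower (5 of 5 with the block, adding ATML1 at an adjusted p of 0.0215), and mesophyll markers to 139 to 215 CPM and 56.5 to 99.1 CPM, with 2 of 3 tested called lower. The part of these cell types in the levels of the 10 enzymes was not tested.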

How the data were processed

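Callus RNA was extracted with TransZol Up and 1 µg went into TruSeq RNA libraries, per the labels' protocols. The authors deposited raw counts (whole numbers) and TPM values for the same loci. STAR 2.7.10a, RSEM 1.3.1 and TAIR10 are named, per the submitters' processing notes; the tool behind each table, strandedness and the handling of multiply mapped reads are not given in the sources used here. Column names gave each sample, and 0 columns were left over. The 10 genes and all lists were chosen with earlier results of these data known.

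Counts were filtered with filterByExpr, scaled by TMM (factors 0.960 to 1.04) and fitted with edgeR 4.0.16 in R 4.3.3 (robust quasi-likelihood, day as the only term), with Benjamini-Hochberg adjustment over 18364 genes at 0.05. The SE of a log2 change was taken from its F statistic (change over square root of F), and ± after a mean is the SD of 3 libraries. Floors and depth cover counting error only. The series calls the replicates biological without naming separate plants or plates, so p-values measure the spread between these libraries. No 2 libraries of a day agreed within counting noise. Alternatives used other scaling factors, no filter, DESeq2 1.42.0, limma 3.58.1 (voom, and log2 TPM with a pseudocount of 1 or 0.1 for loci averaging 1 TPM or more, on deposited and on rescaled TPM), no organelle and rRNA loci, the replicate block, and the loss of each library. The script was tested on simulated counts. Named genes outside the 10 are, per list, the called genes ranked by adjusted p, at most 3, and the first called in the other direction, or the gene of lowest p where none was called. Added after their values were seen were the flavonoid genes given by r with CHS (TT5, CHIL, F3H, FLS1, UGT78D2), PAL3, 4CL3, PLT1, LBD16, SCR, LBD29, CYP98A3, CCR1, MYB12, CESA4, IRX3, IRX1, XCP1, XCP2, CYP86A1, GPAT5, CYP86B1, ATML1, SNG1, CAD5, ADT4, CM3, MYB63, LAC4 and genes at or near 0.

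The labels do not say that equal replicate numbers mark a shared plate or day. After the mean of each day was taken off, same-numbered libraries nevertheless correlated across genes at 0.148, 0.152 and 0.249, whereas other pairs lay between -0.16 and 0.00664, so the blocked result is given where it changes a call. Gene models and sequences were read from RefSeq TAIR10.1, in which 36629 loci had an entry. The deposited tables carry no coordinates. Identities are over global protein alignments of translated coding sequences (Biopython 1.88).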

Additional observations from a re-analysis of the deposited data

How the results depend on the processing

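Against 3 of the 10 enzyme genes called higher, DESeq2 called 5, the replicate block 6 and limma on log2(TPM + 1) or log2(TPM + 0.1) 1. Over all genes, 4616 were called, and 1080 on log2(TPM + 1) and 1083 on log2(TPM + 0.1), where rRNA loci take a share of TPM that differs between libraries. Leaving out 1 library gave 2529 (without day 7 replicate 1; 2910 without day 7 replicate 2) to 4342 genes called, and 0 of the 10 were called lower in any setting. 4CL2, 4CL5, CAD4, FAH1 and ASFT kept their call in all 17 settings. With 1 library left out, the log2 change of 4CL1 ran from -0.026 (without day 7 replicate 3) to 0.50, that of CHS from -0.53 to 0.51 (positive without day 7 replicate 3 or, at 0.25, day 12 replicate 2), and the change in the share of CHS in CHS plus HCT from -10.7 to 0.503 percentage points (positive without day 7 replicate 3, -6.88 with all libraries). The cause of these changes was not tested. Paired by replicate number, the sign-flip test of the shares cannot give an exact p under 0.25, and the replicate block changed no call of the 10 beyond those of PAL4, C4H and COMT1. PAL4 rests on 2 to 89 counts in a library, and 3 libraries a day limit every call.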
